A study of Mus musculus with 8 samples.

Results

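The genes described here are a list of 39 that build, cross-link, degrade or signal through the extracellular matrix of the heart, among them the TGF-beta ligands and their receptors. The list was taken by gene symbol, and all 39 genes were present among the 13227 genes of the deposited counts and were tested, Ctgf under its current symbol Ccn2. Hearts of 4 mice carrying a FASTKD1 transgene (TG hearts A, B, C and E) were compared with hearts of 4 non-transgenic mice (NTG hearts A, B, D and E), to ask how the transgene changes gene expression in the heart. All 8 mice were labelled as male FVB/N adults at 3 months of age. The series title calls the overexpression cardiac-specific, but no source used here gives the promoter that drives the transgene or the number of transgenic lines. Nothing in the labels describes a treatment or injury in either group.

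TGF-beta ligands are secreted in a latent form. They signal through the type II receptor Tgfbr2 and the type I receptor Tgfbr1, and from there to the nucleus by SMAD transcription factors. In the heart this pathway is known for turning fibroblasts into matrix-producing cells after injury and for raising collagens, fibronectin, periostin and Ctgf. Cardiac matrix is made largely by fibroblasts, whereas endothelial cells and cardiomyocytes contribute much of the basement membrane around capillaries and muscle fibres.

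Total counts ran from 44584359 to 55769859 in TG hearts and from 45802079 to 50830215 in NTG hearts, and expression is given in CPM, counts per 1000000 counts of the library after TMM scaling. Fastkd1 had 8845 to 11520 CPM in TG hearts and 26.3 to 192 CPM in NTG hearts, the 192 CPM being in heart D. The library labelled NTG D, a male by its label, stood apart in a further way, since 4 genes of the Y chromosome had 0 counts in it and 10372 to 15914 in each other library. A list of 7 atrial marker genes summed to 3383 CPM in TG heart A and 34.3 to 294 CPM in the other TG hearts, against 649 CPM in NTG heart D and 31.5 to 113 CPM in NTG hearts A, B and E. Results for the matrix genes are therefore also given without TG heart A and NTG heart D. The tissue label was met in all libraries by its cardiomyocyte genes, whose 9 markers summed to 64590 to 67090 CPM in TG hearts and 78510 to 91110 CPM in NTG hearts, and the groups did not overlap. Of these 9 markers 8 had an unadjusted p under 0.05 and 0 passed the adjusted threshold. In whole-heart RNA, fewer cells of a type and less RNA per cell cannot be told apart.

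Of the 39 matrix and TGF-beta genes, Tgfb2 alone was higher in TG hearts, 0 were lower and 38 did not pass (edgeR quasi-likelihood test, Benjamini-Hochberg adjusted p under 0.05 over 13226 genes). Over all tested genes 1.01% were called higher and 0.242% lower, so 1 of 39 is read against that background. DESeq2, which called 3.09% of all genes, also called Tgfb2 alone among the members. The log2 fold change was above 0 for 29 of the 39, against 51.2% of all tested genes, and its median was 0.11 beside 0.01 for all genes. An unadjusted p under 0.05 was reached by 3 members (Tgfb2, Tgfb3 and Eln), where 10.7% of all tested genes reached it. Groups did not overlap for 2 members, Tgfb2 and Tgfb3, while 7.38% of all tested genes had no overlap. Summed over the list, TG hearts held 4216 to 4401 CPM and NTG hearts 3726 to 5024 CPM, a range that encloses the TG values.

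**Figure D1:**
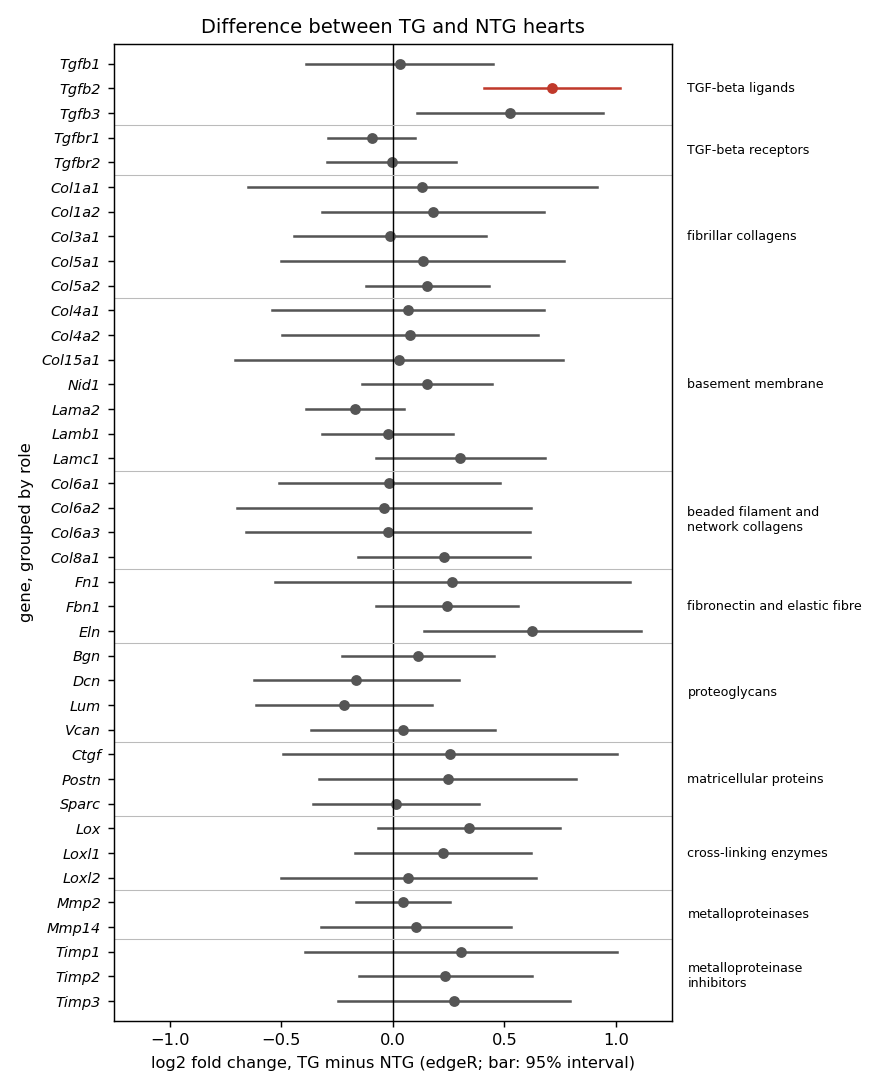
Log2 fold change of each of the 39 genes, TG minus NTG hearts (horizontal axis), with 95% intervals from the edgeR test, genes grouped by role. Tgfb2, in red, is the gene that passed the adjusted threshold, and the intervals of Tgfb3 and Eln also lie above 0.

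Tgfb2 encodes the TGF-beta ligand best known for its part in heart valve and outflow tract development. The gene (ENSMUSG00000039239) lies on the minus strand of GRCm38 chromosome 1, from 186622792 to 186705989. It had 20.8, 23.9, 21.1 and 26.4 CPM in TG hearts A, B, C and E, against 11.8, 12.7, 17.1 and 14.5 CPM in NTG hearts A, B, D and E. Every TG heart lay above every NTG heart, and the highest NTG value was that of heart D. The means were 23.0 ± 2.63 CPM in TG hearts and 14.0 ± 2.37 CPM in NTG hearts (SD, n = 4 each), a 1.64-fold difference. On the log2 scale the difference was 0.71 (SE 0.14, 95% interval 0.41 to 1.02, edgeR adjusted p = 0.0342). The exact two-sided permutation test of log2 CPM gave p = 0.0286, the smallest that 70 arrangements allow. Any gene whose groups do not overlap gives this value, and 7.38% of all tested genes had no overlap. It therefore adds no support to the edgeR result. Between 495 and 1303 reads per library were counted for it. The call was lost without NTG heart A, B or E or TG heart B, C or E (edgeR adjusted p = 0.0684 to 0.164) and with library totals only in place of TMM (adjusted p = 0.144), and held without NTG heart D and TG heart A together (log2 fold change 0.87, adjusted p = 0.0119). NTG heart D had its highest NTG value and TG heart A its lowest TG value, so leaving them out widens the difference.

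The 250 bases before the annotated start of Tgfb2 are shown beside those of Tgfb1, the ligand gene with the smallest difference between groups, to set the promoter of the called ligand beside that of an uncalled one. Both are from RefSeq on GRCm38.p6, Tgfb2 at chr1:186705990-186706239 on the minus strand and Tgfb1 at chr7:25686752-25687001 on the plus strand. Capitals mark matches to 4 motifs searched on both strands. They were the half-site of cAMP response elements, with the letters TGACG, and the E-box with the letters CACGTG. The others were the TATA box, searched as TATAAA, and TGATGNAA, the core of elements that C/EBP and ATF factors bind.
Tgfb2: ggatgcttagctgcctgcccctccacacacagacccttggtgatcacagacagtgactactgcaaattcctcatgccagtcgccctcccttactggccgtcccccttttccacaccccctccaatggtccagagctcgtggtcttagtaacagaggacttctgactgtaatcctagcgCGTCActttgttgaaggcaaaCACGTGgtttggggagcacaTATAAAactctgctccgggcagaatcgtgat
Tgfb1: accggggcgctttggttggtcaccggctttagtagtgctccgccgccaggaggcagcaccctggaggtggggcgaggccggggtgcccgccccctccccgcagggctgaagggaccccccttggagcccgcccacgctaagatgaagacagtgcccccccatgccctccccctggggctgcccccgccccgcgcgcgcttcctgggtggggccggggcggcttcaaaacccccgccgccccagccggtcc
The Tgfb2 window held TGACG, on the opposite strand, from 72 to 68 bases before the start, CACGTG from 51 to 46 and TATAAA from 31 to 26, and no matches overlapped. Among 32851 promoter windows of this length, 17.8% held TGACG, 6.02% CACGTG, 12.4% TATAAA and 3.45% TGATGNAA. The Tgfb1 window held none of the 4 and was 75.2% GC, against 53.6% for Tgfb2 and a median of 52.4% over all windows. These matches describe letters in the window and do not show binding.

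Tgfb3, the third ligand, had 26.5, 16.4, 15.9 and 17.0 CPM in TG hearts A, B, C and E, against 13.9, 10.0, 15.1 and 13.6 CPM in NTG hearts A, B, D and E. All TG hearts were again above all NTG hearts, with TG heart A far above the rest, and the difference did not pass (log2 fold change 0.52, SE 0.19, edgeR adjusted p = 0.331). Tgfb3 overlaps Ttll5 on the other strand. The strand setting of the counts was not given, so reads from the stretch that both genes share cannot be told apart. Tgfb1, the ligand most often linked to fibrosis, had 11.1, 14.1, 14.4 and 14.5 CPM in TG hearts A, B, C and E, against 16.5, 8.37, 14.1 and 13.9 CPM in NTG hearts A, B, D and E. Its groups overlapped fully, and its log2 fold change was 0.03 (SE 0.19, 95% interval -0.39 to 0.45).

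For the receptor genes the intervals of the difference were narrow. Tgfbr1 had 29.0, 27.2, 26.9 and 29.0 CPM in TG hearts A, B, C and E, against 27.3, 33.3, 29.5 and 29.8 CPM in NTG hearts A, B, D and E. Tgfbr2 had 56.3, 50.4, 43.4 and 45.4 CPM in TG hearts A, B, C and E, against 49.4, 38.4, 55.7 and 52.5 CPM in NTG hearts A, B, D and E. The log2 fold changes were -0.10 (95% interval -0.29 to 0.10) for Tgfbr1 and -0.0046 (95% interval -0.29 to 0.28) for Tgfbr2, so both intervals exclude a 1.5-fold difference in either direction. Per kilobase of exon, Tgfb2 stood at 3.98 ± 0.454 CPM in TG hearts and 2.42 ± 0.410 CPM in NTG hearts, Tgfb1 at 2.68 ± 0.323 CPM in TG and 2.62 ± 0.679 CPM in NTG hearts, and Tgfb3 at 5.60 ± 1.498 CPM in TG and 3.89 ± 0.642 CPM in NTG hearts (SD, n = 4 each). On this per-length scale Tgfb1 and Tgfb2 lay within their spread of each other in NTG hearts, and Tgfb3 had the highest mean of the ligands in both groups.

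**Figure D2:**
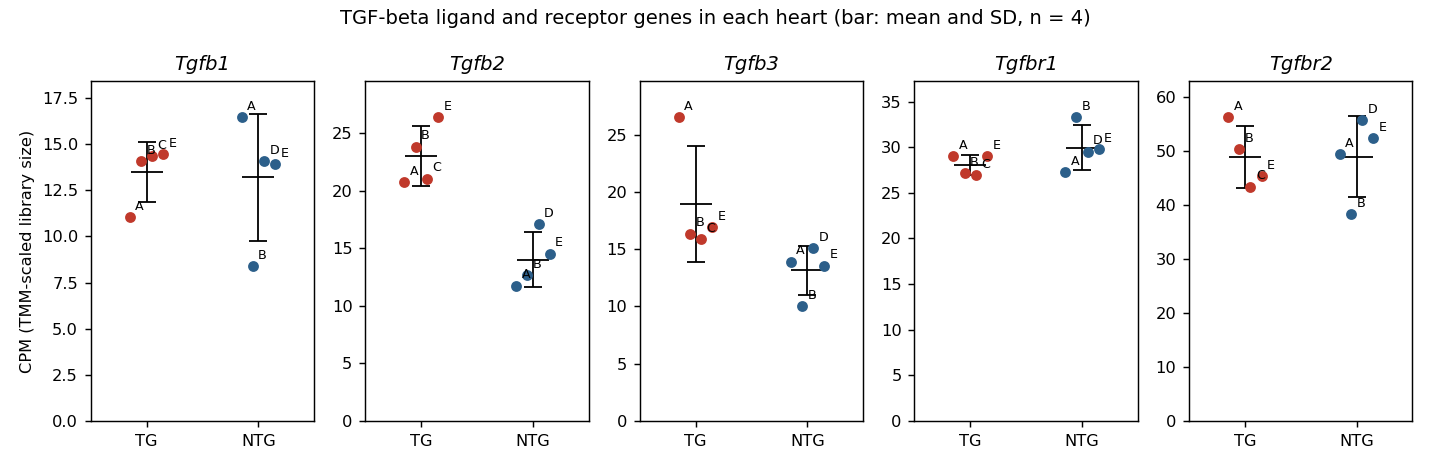
CPM of the 3 ligand genes and 2 receptor genes in each heart (vertical axes start at 0), TG hearts in red and NTG hearts in blue, with heart letters and with mean and SD bars (n = 4). The TG hearts lie above the NTG hearts for Tgfb2 and Tgfb3, and the groups overlap for Tgfb1, Tgfbr1 and Tgfbr2.

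The fibrillar collagens, which form the tensile fibres of the interstitium, gave no call. All 5 varied more among NTG than TG hearts, as did 77.6% of all tested genes. Of 5 genes, 0 were higher and 0 lower, with 0 at an unadjusted p under 0.05 and a median log2 fold change of 0.13. Col1a2, a chain of type I collagen, had 95.9, 119, 109 and 107 CPM in TG hearts A, B, C and E, against 95.3, 55.3, 139 and 90.9 CPM in NTG hearts A, B, D and E. Col5a2, a chain of the type V collagen that starts fibril assembly, had 37.9, 41.5, 42.1 and 38.1 CPM in TG hearts A, B, C and E, against 34.8, 30.6, 45.3 and 32.6 CPM in NTG hearts A, B, D and E. In both genes NTG heart B was the lowest of the 8 hearts and NTG heart D the highest. The log2 fold changes were 0.18 (SE 0.22) for Col1a2 and 0.15 (SE 0.12) for Col5a2 (edgeR adjusted p = 0.844 and 0.745).

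Col1a1, the other type I chain, ranged from 41.8 to 57.8 CPM in TG hearts and from 17.4 to 81.6 CPM in NTG hearts, which gave a standard deviation of log2 CPM of 0.20 in TG hearts and 0.92 in NTG hearts. Its 95% interval of -0.65 to 0.92 leaves differences of 1.5-fold either way possible. Col3a1, the more compliant type III collagen, ran from 264 to 294 CPM in TG hearts and from 213 to 418 CPM in NTG hearts (log2 fold change -0.01, SE 0.19). Col5a1 ran from 27.7 to 38.8 CPM in TG hearts and from 13.9 to 45.1 CPM in NTG hearts.

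Of the 7 basement membrane genes, 0 were higher and 0 lower, with a median log2 fold change of 0.07. Lamc1, the laminin gamma chain of most laminins, had 155, 205, 205 and 209 CPM in TG hearts A, B, C and E, against 159, 108, 190 and 170 CPM in NTG hearts A, B, D and E. TG hearts B, C and E were above all NTG hearts while TG heart A was not, and the log2 fold change of 0.30 (SE 0.17) did not pass (edgeR adjusted p = 0.600). Lama2, the laminin chain whose loss causes a congenital muscular dystrophy, had 130, 156, 169 and 166 CPM in TG hearts A, B, C and E, against 175, 181, 167 and 174 CPM in NTG hearts A, B, D and E. Its lowest value was in TG heart A, and the groups overlapped at 167 to 169 CPM (log2 fold change -0.17, SE 0.10, edgeR adjusted p = 0.622).

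The type IV collagen genes Col4a1 and Col4a2, the main network of the basement membrane, are transcribed in opposite directions from overlapping starts on chromosome 8 and varied together over the 8 hearts (Pearson r = 0.991 of log2 CPM, a description over 8 hearts that share the same libraries). Col4a1 had 214 CPM in TG heart A and 384 to 398 CPM in TG hearts B, C and E, against 181 CPM in NTG heart B and 322 to 460 CPM in NTG hearts A, D and E. A low heart therefore stood in each group, and the log2 fold change was 0.07 (SE 0.27). Col15a1, a collagen of the muscle and capillary basement membrane zone, ran from 65.2 to 87.6 CPM in TG hearts and from 31.7 to 132 CPM in NTG hearts. Nid1 and Lamb1, which link and build the laminin network, had log2 fold changes of 0.15 and -0.02.

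The type VI collagens and Col8a1 gave no call either, with 0 of 4 genes higher or lower and a median log2 fold change of -0.02. Col8a1, a short-chain collagen of vessel walls, had 24.9, 27.3, 40.5 and 30.1 CPM in TG hearts A, B, C and E, against 21.2, 24.0, 32.4 and 27.2 CPM in NTG hearts A, B, D and E. Col6a2, a chain of the beaded filaments around cells, had 52.2, 74.8, 79.9 and 75.97 CPM in TG hearts A, B, C and E, against 69.9, 33.8, 113 and 73.5 CPM in NTG hearts A, B, D and E. TG heart A was the lowest TG heart for all 4 genes, NTG heart D the highest NTG heart for all 4, and NTG heart B the lowest NTG heart for 3. Over all genes these places were held by the same hearts for 35.2%, 27.5% and 35.4%. Col6a1 and Col6a3 had log2 fold changes of -0.02 and -0.02, and the smallest edgeR adjusted p of the 4 genes was 0.725.

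Fibronectin and the elastic fibre genes had log2 fold changes of 0.24 to 0.63, and 0 of 3 passed. Eln encodes elastin, the core of elastic fibres in arteries and valves. It had 30.0, 22.7, 16.9 and 17.7 CPM in TG hearts A, B, C and E, against 14.8, 10.8, 18.9 and 12.01 CPM in NTG hearts A, B, D and E. TG hearts A and B were above all NTG hearts, TG hearts C and E were below NTG heart D, and its edgeR test gave 0.63 on the log2 scale (SE 0.22, adjusted p = 0.322).

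Fbn1, the fibrillin that scaffolds elastin and holds latent TGF-beta, had 60.4, 71.5, 74.1 and 72.7 CPM in TG hearts A, B, C and E, against 64.1, 42.5, 68.7 and 60.2 CPM in NTG hearts A, B, D and E. TG hearts B, C and E lay above all NTG hearts, and its edgeR test gave 0.24 on the log2 scale (SE 0.14, adjusted p = 0.622). Fn1, the fibronectin on which other matrix proteins assemble, ran from 44.7 to 83.3 CPM in TG hearts and from 20.7 to 81.6 CPM in NTG hearts (log2 fold change 0.27, SE 0.36).

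**Figure D3:**
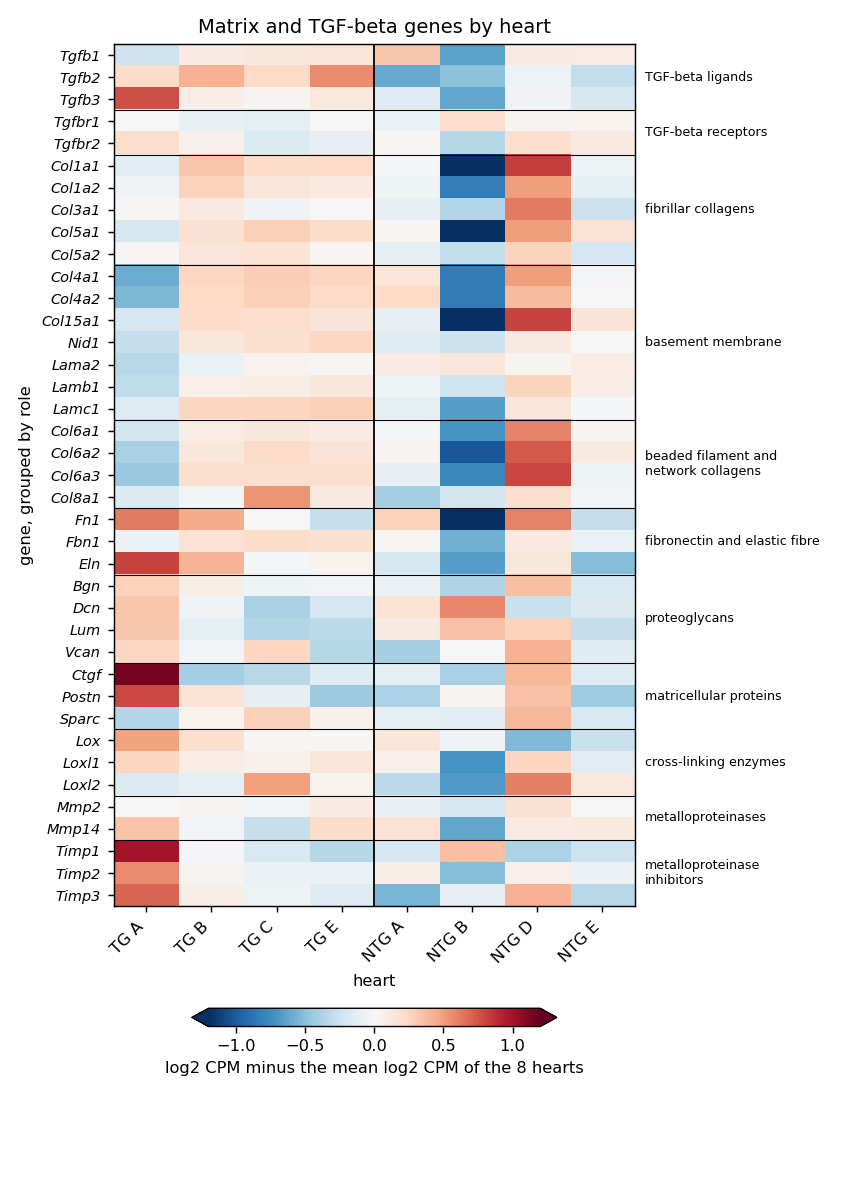
Log2 CPM of each gene minus its mean over the 8 hearts (colour, with values beyond ±1.2 shown at the end colours), hearts in columns with TG left of NTG, genes in rows by role. NTG heart B is low and NTG heart D high for most collagens, and TG heart A is low for basement membrane genes and high for Ctgf, Eln, Tgfb3 and the Timp genes.

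Among the proteoglycans, 0 of 4 were higher or lower, with a median log2 fold change of -0.06. Lum, the keratan sulfate proteoglycan lumican that spaces collagen fibrils, had 198, 146, 124 and 127 CPM in TG hearts A, B, C and E, against 171, 202, 191 and 129 CPM in NTG hearts A, B, D and E. Dcn, the fibroblast proteoglycan decorin that also binds TGF-beta, had 1021, 786, 620 and 704 CPM in TG hearts A, B, C and E, against 907, 1205, 673 and 720 CPM in NTG hearts A, B, D and E. The highest Dcn value was in NTG heart B, the heart with the lowest values of 11 of the 12 collagens among NTG hearts. The log2 fold changes were -0.22 (SE 0.18) for Lum and -0.16 (SE 0.21) for Dcn (edgeR adjusted p = 0.748 and 0.846), and Bgn and Vcan had 0.11 and 0.05.

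Among the matricellular genes, which signal to cells rather than bear load, 0 of 3 passed, and TG heart A stood at an end of the TG values for each. Over all genes TG heart A was the lowest TG heart for 35.2% and the highest for 34.5%, so this place is common. Postn, the periostin made by activated fibroblasts and valve cells, had 110, 71.2, 59.3 and 47.1 CPM in TG hearts A, B, C and E, against 48.7, 64.9, 81.2 and 47.2 CPM in NTG hearts A, B, D and E. Ctgf, a known TGF-beta target, had 172, 58.5, 61.7 and 70.3 CPM in TG hearts A, B, C and E, against 71.8, 59.5, 103 and 69.96 CPM in NTG hearts A, B, D and E. In both genes the highest TG heart was A and the highest NTG heart was D, the hearts with the highest atrial marker sums of their groups (3383 and 649 CPM); the part of atrial tissue in these values was not tested. The log2 fold changes were 0.25 (SE 0.26) for Postn and 0.25 (SE 0.34) for Ctgf, and without TG heart A the sign of both turned. Without TG heart A and NTG heart D together they were 0.14 for Postn and -0.08 for Ctgf. Sparc, which binds collagen during its assembly, ran from 274 to 428 CPM in TG hearts and from 308 to 462 CPM in NTG hearts.

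Of the 3 enzymes that cross-link collagen and elastin, 0 passed. Lox, the lysyl oxidase, was the least abundant member per kilobase and had 4.31, 3.54, 3.13 and 3.12 CPM in TG hearts A, B, C and E, against 3.42, 3.00, 2.14 and 2.57 CPM in NTG hearts A, B, D and E (log2 fold change 0.34, SE 0.18, edgeR adjusted p = 0.570). These values rest on 117 to 190 reads per library. Loxl1, the relative needed for elastic fibres, had 27.5, 24.5, 23.9 and 25.5 CPM in TG hearts A, B, C and E, against 24.1, 14.0, 27.5 and 20.99 CPM in NTG hearts A, B, D and E. NTG heart B was the low value of Loxl1, and the log2 fold change of 0.23 (SE 0.18) did not pass. Loxl2, a further lysyl oxidase relative, ran from 13.9 to 21.9 CPM in TG hearts and from 9.73 to 23.7 CPM in NTG hearts (log2 fold change 0.07, SE 0.26).

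Of the 2 metalloproteinases, which degrade matrix, 0 passed. Mmp2, a gelatinase, had 63.1, 64.3, 61.5 and 67.5 CPM in TG hearts A, B, C and E, against 59.3, 54.8, 71.4 and 62.9 CPM in NTG hearts A, B, D and E. Its log2 fold change was 0.04 with a 95% interval of -0.16 to 0.25, which excludes a 1.5-fold difference. Mmp14, the membrane-bound enzyme that activates Mmp2, had 15.5, 11.98, 10.1 and 14.3 CPM in TG hearts A, B, C and E, against 13.9, 7.94, 13.1 and 13.3 CPM in NTG hearts A, B, D and E (log2 fold change 0.10, SE 0.19).

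Their tissue inhibitors had log2 fold changes of 0.24 to 0.31, with 0 of 3 passing. Timp2 had 134, 92.7, 86.1 and 85.6 CPM in TG hearts A, B, C and E, against 94.9, 63.2, 94.0 and 86.0 CPM in NTG hearts A, B, D and E. Timp3, the inhibitor that stays bound to matrix, had 131, 84.5, 77.2 and 73.1 CPM in TG hearts A, B, C and E, against 55.3, 75.4, 108 and 64.0 CPM in NTG hearts A, B, D and E. TG heart A was the highest of the 8 hearts for all 3 inhibitors, and Timp1, an inhibitor that rises strongly in injured hearts, had 3.38 CPM there and 1.34 to 1.68 CPM in TG hearts B, C and E, against 1.30 to 2.18 CPM in NTG hearts. No difference passed (edgeR adjusted p = 0.720 to 0.811).

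Levels can be ordered per kilobase of merged exons, where isoforms that are not used in heart lower the value. Dcn was the most abundant member, at 134 ± 29.6 CPM per kilobase in TG hearts and 150 ± 41.4 in NTG hearts, followed by Sparc at 94.2 ± 16.7 in TG hearts and 93.3 ± 19.2 in NTG hearts (SD, n = 4 each). Next came Lum, Col4a1, Col4a2 and Bgn in both groups, and the means of Col4a1 and Col4a2, at 46.4 and 44.2 in TG hearts and 44.3 and 41.9 in NTG hearts, were closer than their spread. At the low end, Lox stood at 0.738 ± 0.117 CPM per kilobase in TG hearts and 0.582 ± 0.116 in NTG hearts. Eln was at rank 33 of 39 in TG hearts and rank 38 in NTG hearts, and Tgfb2 at rank 30 and rank 33.

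The members varied more between hearts of a group than most genes. The median standard deviation of log2 CPM was 0.24 in TG hearts and 0.35 in NTG hearts for the 39 members, against 0.13 and 0.23 for all tested genes. The spread was larger in NTG hearts for 29 of 39 members, which is near the 77.6% of all tested genes where it was. The 95% interval of the log2 fold change lay within 1.5-fold in both directions for 15 of 39 members, against 70.6% of all tested genes. For the other 24 members a difference of 1.5-fold in at least 1 direction was not excluded by these hearts.

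**Figure D4:**
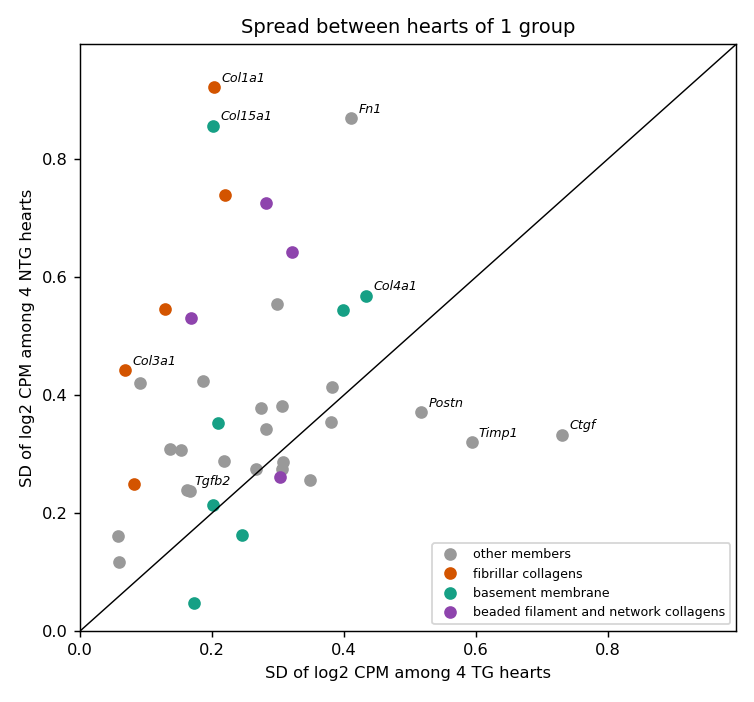
Standard deviation of log2 CPM among the 4 TG hearts (horizontal) and among the 4 NTG hearts (vertical) for each of the 39 genes, with the line of equal spread. Collagens lie above the line, led by Col1a1 at 0.20 in TG and 0.92 in NTG hearts, with Col8a1 as their exception, while Ctgf, Timp1 and Postn lie below it.

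Single hearts often stood at the ends of that spread. NTG heart B was the lowest of the 8 hearts for 24 of 39 members (61.5%), where it was the lowest for 29.8% of all genes, and its 12 collagens summed to 816 CPM. It was the highest of the 8 for 4 members (10.3%) and for 28.0% of all genes, so it stood at an end for many genes outside the list. NTG heart D was the highest of the 8 for 17 members (43.6%, against 14.6% of all genes), with a collagen sum of 1980 CPM, and was the highest NTG heart for each of the 12 collagens. The TG hearts had collagen sums of 1104 (A), 1556 (B), 1558 (C) and 1516 (E) CPM, and NTG hearts A and E had 1402 and 1312 CPM. TG heart A was the lowest TG heart for 11 of 12 collagens and for all 7 basement membrane genes, and the highest TG heart for all 3 Timp genes and 3 of 4 proteoglycans. Among all 39 members it was the lowest TG heart for 51.3% and the highest for 38.5%. Over all genes it was the lowest TG heart for 35.2% and the highest for 34.5%, so it often stood at an end outside the list too. NTG heart D was the highest NTG heart for 27.5% of all genes.

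Cell type markers did not follow this pattern in a uniform way. The 10 fibroblast markers, with 0 called, summed to 565 CPM in TG heart A and 401 to 426 CPM in the other TG hearts, against 493 CPM in NTG heart B and 431 to 451 CPM in the other NTG hearts. NTG heart D, with the highest collagen sum, had 451 CPM of these markers, below the 493 CPM of NTG heart B with the lowest. The 9 smooth muscle and pericyte markers tested, with 0 called, summed to 1194 to 1629 CPM in TG hearts and 1199 to 1745 CPM in NTG hearts. Their log2 fold changes went both ways, with 5 of 9 above 0, a median of 0.12 and a lowest value of -0.26. The highest was that of Acta2, a marker of smooth muscle and of activated fibroblasts, which had 222, 259, 375 and 210 CPM in TG hearts A, B, C and E, against 108, 173, 134 and 109 CPM in NTG hearts A, B, D and E. The groups did not overlap, as for 7.38% of all tested genes, and the log2 fold change of 1.03 (SE 0.21) missed the threshold (edgeR adjusted p = 0.0505). The 9 endothelial markers ran from 879 to 942 CPM in TG hearts and from 931 to 1034 CPM in NTG hearts, with TG heart A lowest and NTG heart D highest. The 8 epicardial and mesothelial markers summed to 127 CPM in TG heart A and 39.3 to 62.7 CPM in TG hearts B, C and E, against 32.6 to 94.5 CPM in NTG hearts. The 3 endocardial markers were at 166 CPM in TG heart A and 80.4 to 84.9 CPM in the other TG hearts, against 80.9 to 107 CPM in NTG hearts. The 4 erythroid markers tested, all with an unadjusted p under 0.05 and 0 passing, summed to 299 to 416 CPM in TG hearts and 356 to 803 CPM in NTG hearts. The part of cell type makeup in the values of the matrix genes was not tested.

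**Figure D5:**
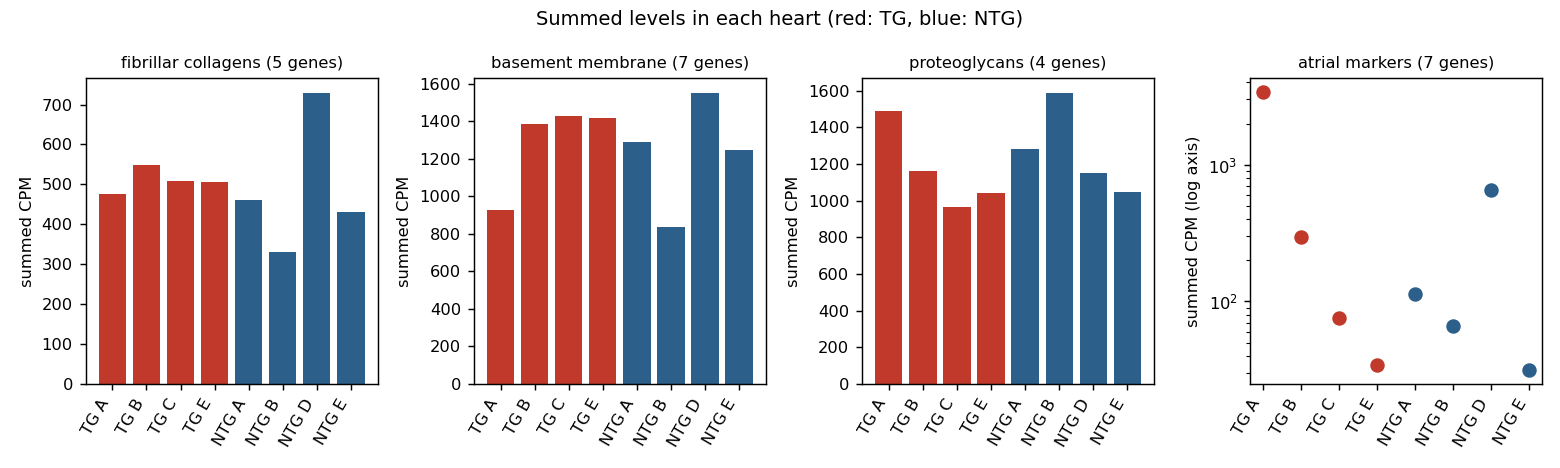
Summed CPM in each heart (TG in red, left, and NTG in blue) for fibrillar collagens, basement membrane genes and proteoglycans, on axes from 0, and for 7 atrial markers on a log axis. NTG heart B is lowest and NTG heart D highest for fibrillar collagens, at 330 and 729 CPM, and TG heart A stands out for atrial markers at 3383 CPM.

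How far the list as a whole leaned above 0 changed with the hearts that entered. When single hearts were left out, the median fell below 0 only without NTG heart B. Without any other single heart, 23 to 35 of 39 members were above 0, with medians of 0.07 to 0.27. Without NTG heart B, 18 of 39 members had a log2 fold change above 0, against 50.2% of all genes, with a median of -0.01, and 0 members were called where 1.65% of all genes were. Without NTG heart D it was 35 of 39 against 51.5% of all genes, with a median of 0.27, and Tgfb2 was called where 1.59% of all genes were. In that comparison 9 members had an unadjusted p under 0.05, against 14.5% of all genes. Without both NTG heart D and TG heart A, 32 of 39 were above 0, where 51.3% of all genes were, and the median was 0.30. In that comparison 13 members had an unadjusted p under 0.05 (16.8% of all genes did), 12 of them higher in TG hearts, with Dcn lower, and Tgfb2 alone passed the adjusted threshold, which 2.09% of all genes passed. The next smallest adjusted p there was that of Eln, at 0.116 (log2 fold change 0.60, SE 0.16), then Lamc1 at 0.175 (0.50, SE 0.16) and Nid1 at 0.181 (0.32, SE 0.11). NTG heart D was the highest NTG heart for 30 of the 39 members and the lowest for 4. TG heart A was the lowest TG heart for 20 and the highest for 15. NTG heart B, the lowest NTG heart for 27, was kept. Leaving out a highest NTG heart or a lowest TG heart raises a fold change, so the counts without these hearts do not by themselves show a rise of the list.

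The 3 members whose log2 CPM over the 8 hearts was most like that of Tgfb2 were Lamc1 (Pearson r = 0.715), Eln (0.673) and Fbn1 (0.652), given as a description over hearts of both groups. Pairs of chains that form one protein were closer, with r = 0.993 for Col1a1 and Col1a2 and 0.993 for Col6a1 and Col6a2.

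The wider pathway was read from 180 tested genes in 5 further lists, of which 1 was higher, 1 was lower and 178 did not pass, beside 1.01% and 0.242% of all genes. Their median log2 fold change was 0.07. DESeq2 called 4 of the 180 genes higher, among them Col4a5, P3h2 and Ctsl, and P3h4 lower, where it called 3.09% of all genes. Among 56 other matrix proteins, Col4a5, an X-linked type IV collagen chain, had a log2 fold change of 0.39 (SE 0.10) and did not pass (edgeR adjusted p = 0.113). Its groups did not overlap, which held for 7.38% of all tested genes.

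Of 24 genes that modify and process collagen, P3h4, part of a complex for collagen hydroxylation in the endoplasmic reticulum, was lower, at 15.96, 12.2, 13.2 and 12.9 CPM in TG hearts A, B, C and E, against 22.9, 21.2, 17.7 and 21.4 CPM in NTG hearts A, B, D and E. All TG hearts lay below all NTG hearts, its edgeR test gave -0.62 on the log2 scale (SE 0.12, adjusted p = 0.0353), and the call was lost without NTG heart A, B or E or TG heart B, C or E (adjusted p = 0.0559 to 0.142) and with library totals only (adjusted p = 0.0604). P3h2, a prolyl 3-hydroxylase for basement membrane collagen, had a log2 fold change of 0.67 (SE 0.16) and did not pass (edgeR adjusted p = 0.104).

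Among 47 other genes of TGF-beta and BMP signalling, 0 were higher and 0 lower, with a median log2 fold change of 0.07. Of the 47, 7 had an unadjusted p under 0.05, where 10.7% of all tested genes did. DESeq2 also called 0 of them. Inhba, an activin subunit, had a log2 fold change of 0.69 (SE 0.22) and did not pass (edgeR adjusted p = 0.267). Of 28 other matrix proteases and inhibitors 0 passed, the nearest being the lysosomal protease gene Ctsl at 0.52 (SE 0.14, edgeR adjusted p = 0.175) and Adam19 at 0.38 (SE 0.13, edgeR adjusted p = 0.317). Of 25 matrix receptor genes 0 passed, with Itgb6, an integrin subunit that can activate latent TGF-beta, at -0.48 (SE 0.14, edgeR adjusted p = 0.216) and Itgb4 at 0.96 (SE 0.44, edgeR adjusted p = 0.475).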

How the data were processed

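The authors deposited 1 file of raw counts per heart, in whole numbers for Ensembl genes and without normalization. The tools named are cutadapt 1.15 and TopHat2, with GRCm38 (mm10), per the submitters' processing notes. The read counter, annotation release and strand setting: not given in the sources used here. Symbols, coordinates and merged exon lengths came from GENCODE M21 on GRCm38 (7 identifiers unmatched; 5 list symbols matched through newer ones), promoters from RefSeq. Genes under about 1 CPM in all but 1 library were not analysed here: every gene's second-highest CPM was at least 1.003.

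Counts were tested with edgeR 4.0.16 in R 4.3.3: filterByExpr, TMM scaling, quasi-likelihood F test without a block, Benjamini-Hochberg adjustment over 13226 genes, threshold 0.05. SE came from dividing the size of the log2 fold change by root F; 95% intervals use its t quantile. Log2 CPM of single hearts uses a prior count of 2. The fit was also run on simulated counts drawn with the same spread in both groups. Spread in these hearts differed between groups, so that run gives no error rate for them. Nothing beyond the titles says that libraries are separate animals, so p-values measure the spread between these libraries. Alternatives used other scalings, filters and thresholds, limma 3.58.1, DESeq2 1.42.0, a replicate block and left-out hearts.

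Members, lists and tests were chosen with earlier results of these data known. Values per heart are given for the called member, ligands, receptors and the 2 members of each role with the smallest p; of other lists, for called genes, otherwise the 2 with the smallest p. Other members are given by ranges or fold changes; Acta2 and the pairs of chains correlated were chosen after their values were seen. Of 12 marker lists, lymphocyte genes were not analysed here. Each other list, macrophage, adipocyte and Schwann genes among them, had 0 members called. Genes in the other lists that the rule would name are in part not reported here.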

Additional observations from a re-analysis of the deposited data

Results flagged for a closer look

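In 12 of 78 gene and group combinations (15.4%), the highest or lowest heart lay far from the other 3 of its group by Dixon's ratio on log2 CPM; this held for 6.91% of such combinations over all tested genes, and chance gives about 1 in 20. The combinations are not independent, because all genes come from the same libraries and some vary together, so these shares are a description and not a test. TG heart A accounted for 10 of the 12. It was low for Tgfb1 (11.1 CPM, against 14.1 to 14.5 in the other TG hearts), Col4a1 (214, against 384 to 398), Col4a2 (188, against 322 to 335), Col15a1 (65.2, against 83.7 to 87.6), Lamc1 (155, against 205 to 209), Col6a1 (62.8, against 78.2 to 80.5), Col6a2 (52.2, against 74.8 to 79.9) and Col6a3 (19.8, against 30.8 to 31.0). It was high for Tgfb3 (26.5 CPM, against 15.9 to 17.0 in the other TG hearts) and Ctgf (172, against 58.5 to 70.3). In NTG hearts, heart D was high for Sparc (462 CPM, against 308 to 324) and heart B was low for Mmp14 (7.94 CPM, against 13.1 to 13.9).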

How the results depend on the processing

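Tgfb2 kept its direction under all 19 alternatives (log2 fold change 0.63 to 0.87) and its call under 12 (adjusted p 0.000193 to 0.164). These counts include the looser threshold of 0.1, which was applied to the main fit itself. No sign or call could be lost there, and it gave 39 of the member values counted next. Of 739 member values under alternatives, 659 kept sign and side of the threshold, 7 (all Tgfb2) lost the call, and 73 values in 23 genes, none called, changed sign. Members called higher numbered 1, and 0 with library totals only or, at the lowest, without a single heart (range 0 to 1); members called lower were 0 throughout. Library totals only moved the median of all genes to 0.08 and that of the members to 0.15. Other pathway genes called higher numbered 1 with all hearts, 2 with library totals only, 0 with a replicate block, 4 without NTG heart D and TG heart A, 4 with DESeq2, and 1 to 2 without single hearts. Those called lower numbered 1, then 0, 0, 2 and 1 in these settings, and 0 to 3 without single hearts. All genes called numbered 165, and 276 without hearts D and A and 408 with DESeq2. The labels do not say whether title letters pair hearts. Deviations from the group means correlated at 0.30 (A), -0.09 (B) and 0.36 (E) between hearts of the same letter. Between hearts of different letters they correlated at -0.44 to 0.45, and so few values cannot decide the question. With a replicate block, 124 genes were called, Tgfb2 among them (0.86, adjusted p = 0.0282), and P3h4 lost its call (adjusted p = 0.0884), as with library totals only (0.0604). The causes of these changes were not tested. With 4 hearts a group, 24 of the 39 intervals do not exclude a 1.5-fold difference. Timp1 and Lox rest on 65 to 190 reads per library.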
